A study of Homo sapiens with 6 samples.

Results

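Described here are 10 secreted signalling proteins at the RNA level: the interleukin genes IL1A, IL1B, IL6, IL7, IL11, IL15, IL24 and IL33, the leukaemia inhibitory factor gene LIF and the thymic stromal lymphopoietin gene TSLP. They are 10 of 19775 genes on the array, read by 14 of 41091 probe sets with 1 gene symbol. The genes were chosen by symbol with the levels and changes of these same arrays known, so their values in the vector comparison and in the comparison of the cell lines are descriptions of what was chosen and are no independent support. The arrays held RNA from KHOS and U-2OS, established human osteosarcoma lines. KHOS is a Kirsten sarcoma virus transformant of another osteosarcoma line. Each line was measured as a control for which the labels name no vector, with the empty vector pmiR-null and with the vector pmiR-1, which carries the muscle microRNA miR-1. Vectors were transfected with Lipofectamine LTX for 48 hours. Each line and condition had 1 array, hybridized with RNA pooled from 3 flasks, so a value within a line has no replicate and the spread between cultures is not in these data. The labels do not say whether control cells received the transfection reagent.

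Interleukin-6, interleukin-11 and LIF belong to 1 family, whose receptors share the signalling chain gp130 (gene IL6ST) and pass the signal to JAK kinases and STAT3. Interleukin-1 alpha, interleukin-1 beta and interleukin-33 belong to the interleukin-1 family, which signals through MyD88 to NF-kB. TSLP and interleukin-7 both use the receptor chain IL7R, and interleukin-15 uses IL15RA, IL2RB and IL2RG. In bone, IL-6 family cytokines act on osteoblasts and, through them, on osteoclasts. Many cytokine genes are silent in resting cells and switched on by NF-kB, AP-1 and C/EBP factors after stress or infection.

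The mature strand of the microRNA in the pmiR-1 vector is shown because it is the agent that the study set out to test. It is the RefSeq entry hsa-miR-1-3p (GRCh38.p14, chr20:62554351-62554372, plus strand), with the seed, bases 2 to 8, in capitals.
hsa-miR-1-3p: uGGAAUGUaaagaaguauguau

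Expression values were log2 RMA values, so a difference of 1 is a factor of 2. Of the 10 genes 8 had a probe set whose mean over the 6 arrays reached 5.11, the median of all probe sets, and were tested with 12958 genes in all. IL7 and IL33 lay below that level on all 6 arrays. Array medians lay between 4.98 and 5.15. The interquartile range of an array was 3.24 on the KHOS control, 3.32 with miR-null and 3.36 with miR-1. In U-2OS it was 3.07 on the control, 2.84 with miR-null and 2.75 with miR-1, so it moved in opposite directions in the lines. Hybridization spike-ins were higher by 0.18 to 0.84 and 28S ribosomal RNA probe sets by 0.36 to 0.99 on the 4 vector arrays than on the control array of the same line. The part of these differences in the vector results below was not tested. In RNA from whole cultures, fewer cells that make a cytokine and less of its RNA per cell cannot be told apart. Of 9 markers of bone and connective tissue cells, 7 had mean levels of at least 5.11 in both lines. VIM, COL1A1, SPARC and RUNX2 were among them, and COL1A2 and ALPL were not. RUNX2 in U-2OS read 6.74 on the control and was under 5.11 on both vector arrays, with 4.72 and 4.23. Among 9 measured blood and immune markers, 2 reached that level in KHOS (CD3E and ITGAM) and 3 in U-2OS (CD3D as well), and the pan-leukocyte gene PTPRC and the myeloid genes CD14, LYZ and TYROBP did not. Of 8 epithelial markers, EPCAM, CLDN4 and CLDN7 did in both lines.

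**Figure D1:**
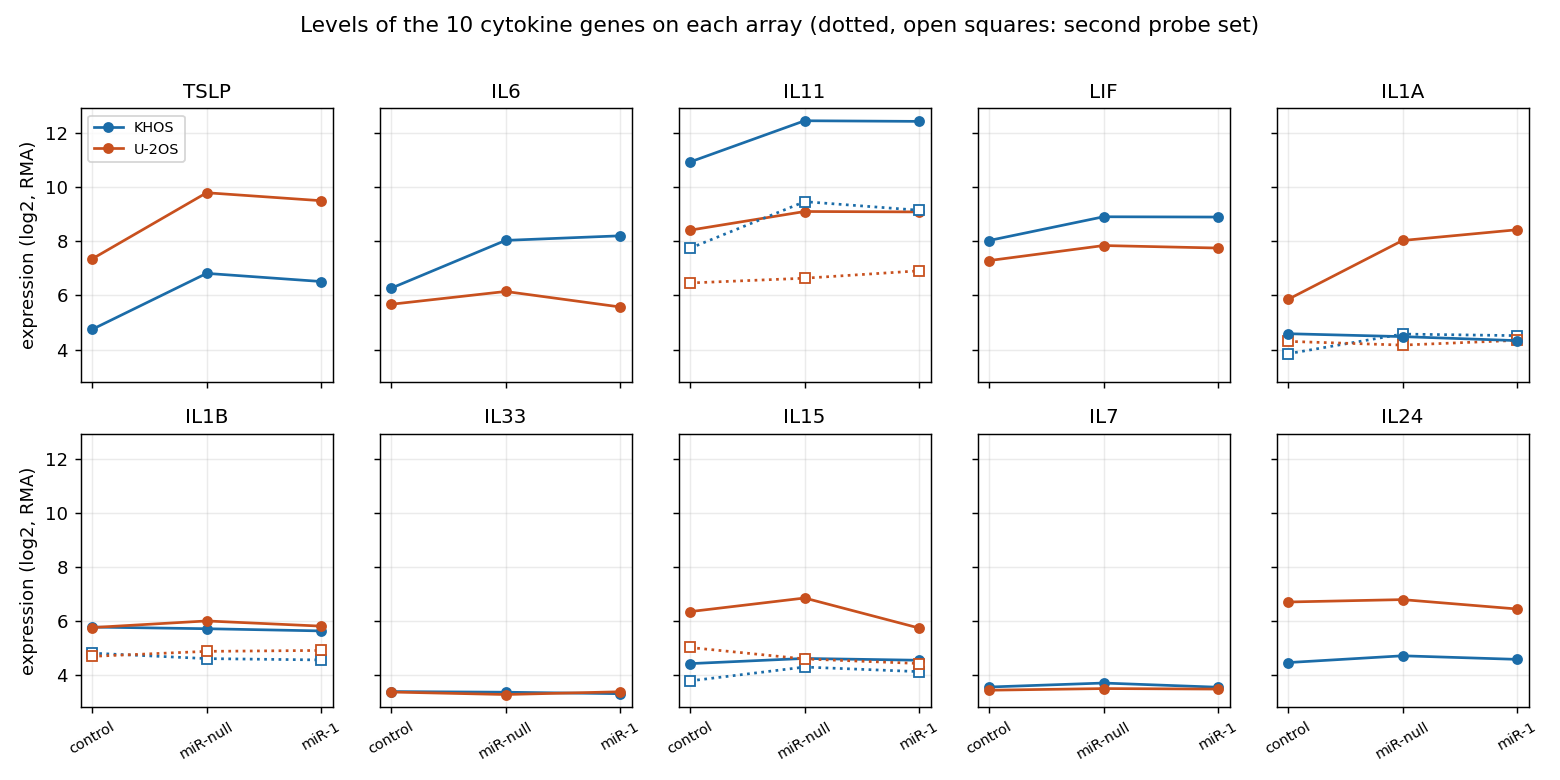
Expression (log2, RMA) of the 10 genes on the 6 arrays, with condition on the horizontal axis and 1 point per array. Filled circles are the probe set used and open squares a gene's second probe set. TSLP is higher on the vector arrays of both lines, IL6 mainly on those of KHOS, and IL1A on those of U-2OS by only 1 of its probe sets.

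TSLP, an epithelial and stromal cytokine that activates dendritic cells and type 2 immunity, had the largest change with a vector among the 8 tested genes. It read 4.74 on the KHOS control, 6.82 with miR-null and 6.51 with miR-1. In U-2OS it read 7.35 on the control, 9.80 with miR-null and 9.50 with miR-1. The KHOS control value lay under the tested level of 5.11. All 4 vector arrays were above the control of their line, and all 3 U-2OS arrays were above all 3 KHOS arrays. The vector arrays were 4.20-fold and 3.41-fold above control in KHOS and 5.45-fold and 4.44-fold in U-2OS. The fitted rise was 2.11 ± 0.16 (log2, SE), or 4.32-fold (adjusted p = 0.0450 in limma, over all genes tested). In this comparison 3 of 12958 genes passed (0.0232%), all of them higher. TSLP was 1 of them, beside the stress response genes DDIT3 and PPP1R15A. The call was lost when the values were quantile normalized again (2.12, adjusted p = 0.0506) and when every probe set was tested (adjusted p = 0.0553). It was kept without each of the 6 arrays in turn, with a fitted rise of 1.92 to 2.30. In each of those fits more of all genes passed than the 3 with all arrays, so a call was easier to reach there.

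IL11, a cytokine of bone and fibroblasts that acts through gp130, was the next. Its level was 10.93 on the KHOS control, 12.46 with miR-null and 12.43 with miR-1, and 8.41, 9.10 and 9.09 on the corresponding U-2OS arrays. Both vector arrays of a line were above its control, by 1.52 and 1.50 in KHOS and by 0.69 and 0.67 in U-2OS. A second probe set showed the same order of control and vector arrays, with 7.74, 9.47 and 9.15 in KHOS, against 6.46, 6.64 and 6.91 in U-2OS. The fitted change was 1.10 ± 0.22 (SE), with an adjusted p of 0.155 over all genes. It passed without the KHOS control array (0.68, adjusted p = 0.0287) or without the U-2OS control array (1.51, adjusted p = 2.99e-04). With a control array left out, the change comes from the other line alone and the spread no longer holds the difference between the lines; 2271 and 761 genes passed in those fits.

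LIF, a cytokine of the gp130 family that acts on osteoblasts, had smaller differences in the same direction. Its KHOS values were 8.03, 8.91 and 8.90 for control, miR-null and miR-1, and its U-2OS values 7.29, 7.84 and 7.75. The vector arrays stood above control by 0.88 and 0.87 in KHOS and by 0.56 and 0.46 in U-2OS. The fitted change was 0.69 ± 0.16 (SE, adjusted p = 0.161), and it was 0.87 (adjusted p = 0.0153) without the U-2OS control array and 0.51 (adjusted p = 0.0853) without the KHOS control array. IL11, LIF and TSLP were the 3 of the 8 tested genes that were higher on all 4 vector arrays than on the control of their line, a pattern that 14.2% of all genes tested had.

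IL6, a cytokine of the acute phase and of inflammation, was higher with a vector in KHOS. It read 6.27 on the KHOS control and 8.03 and 8.20 with miR-null and miR-1, which is 3.41-fold and 3.83-fold above control. In U-2OS it read 5.67 on the control, 6.15 with miR-null and 5.57 with miR-1, so that the vector arrays lay on either side of the control. The change in KHOS exceeded that in U-2OS by 1.67 ± 0.34 (log2, SE, adjusted p = 0.0490 in limma). This line difference passed for 2 of the 8 tested genes, IL6 and IL1A, against 2.28% of all genes. IL1A reached the tested level through U-2OS alone, so its value is a description. The IL6 call was lost with a further quantile normalization (1.45, adjusted p = 0.166), with no level filter (adjusted p = 0.0501), with every probe set tested (adjusted p = 0.0625), and without the KHOS miR-null (1.75, adjusted p = 0.204) or the KHOS miR-1 array (1.58, adjusted p = 0.252). Across both lines the fitted change was 1.02 ± 0.38 (SE, adjusted p = 0.283), and it was 1.85 (adjusted p = 2.26e-04) without the U-2OS control array and 0.19 (adjusted p = 0.608) without the KHOS control array.

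IL1A, an alarmin of the interleukin-1 family that is active without cleavage, gave different readings on its probe sets. On the probe set used, the U-2OS control had 5.85, miR-null 8.03 and miR-1 8.43, or 4.52-fold and 5.96-fold above control. The KHOS arrays of that probe set had 4.59, 4.48 and 4.33, all under the level of 5.11. The other probe set stayed under that level on all 6 arrays, with 4.30, 4.16 and 4.34 in U-2OS, against 3.85, 4.57 and 4.51 in KHOS. The rise in U-2OS therefore rests on 1 probe set and is uncertain. On that probe set the change in KHOS was lower than that in U-2OS, with a line difference of -2.56 ± 0.29 (log2, SE, adjusted p = 0.00873 in limma). IL1A reached the tested level through U-2OS alone, so this difference is given as a description. The line difference was -0.90 (adjusted p = 0.0725) when the probe sets were averaged, -2.83 (adjusted p = 0.0538) after another quantile normalization, -2.63 (adjusted p = 0.0823) without the KHOS miR-null array and -2.48 (adjusted p = 0.0840) without the KHOS miR-1 array. The change fitted over both lines, 1.10 ± 0.53 (SE, adjusted p = 0.378), was 2.38 (adjusted p = 4.11e-05) without the KHOS control array and -0.18 with the U-2OS control array left out.

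IL1B, which needs cleavage by caspase-1 to become active, did not follow IL1A. For control, miR-null and miR-1 it read 5.77, 5.71 and 5.63 in KHOS. In U-2OS it read 5.75 on the control, 0.24 more with miR-null and 0.05 more with miR-1. The lines overlapped, and the fitted vector change of 0.02 had a 95% interval of -0.34 to 0.39. IL33, a nuclear alarmin of epithelial and endothelial cells, had values from 3.28 to 3.39 over the 6 arrays. IL7, a growth factor of lymphocytes made by stromal cells, had values from 3.44 to 3.70. Neither of the latter 2 genes had a mean level that reached the tested range, and no detection call comes with RMA values.

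IL15, which supports natural killer cells and memory T cells, read 6.34 on the U-2OS control, 6.85 with miR-null and 5.73 with miR-1. In KHOS it read 4.42, 4.61 and 4.54, under the tested level on all 3 arrays. Its fitted vector change was 0.05 ± 0.23 (SE). A second probe set had 5.02, 4.59 and 4.42 in U-2OS, against 3.78, 4.29 and 4.12 in KHOS, so the U-2OS miR-null array was above control by 0.50 on the first set and below it by a difference of -0.42 on the second. IL24, a cytokine of the interleukin-10 family studied for its toxicity to tumour cells, read 6.70, 6.79 and 6.44 in U-2OS, against 4.46, 4.71 and 4.58 in KHOS. The IL24 vector change was 0.05 ± 0.16 (SE).

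**Figure D2:**
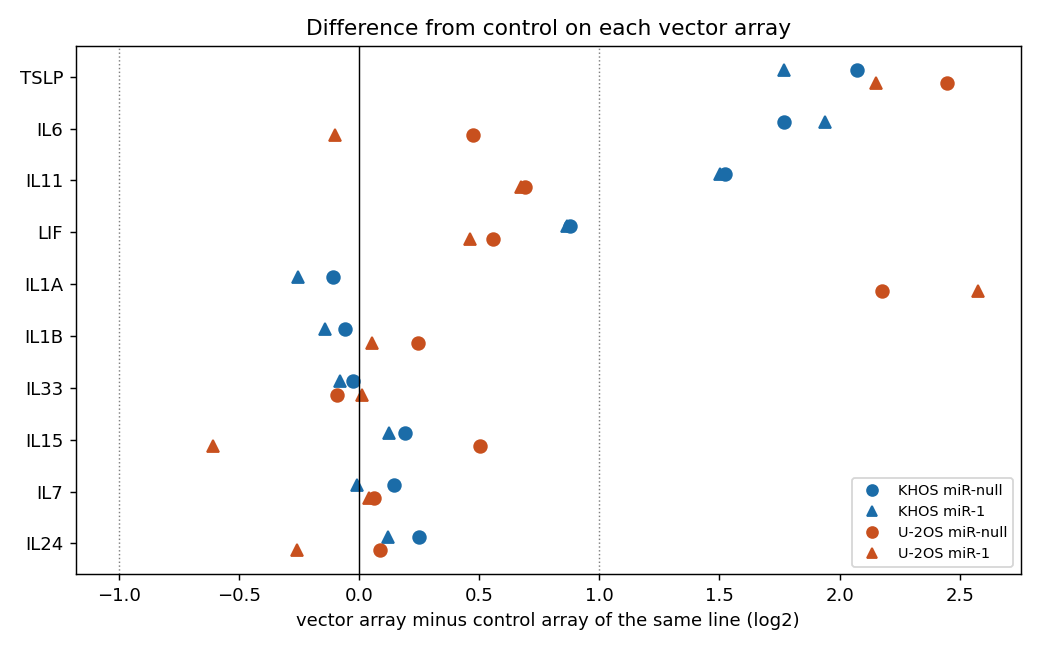
Difference of each vector array from the control array of its line (log2), with circles for miR-null and triangles for miR-1, blue for KHOS and orange for U-2OS. Dotted lines mark a difference of 1. Both vectors of a line lie close together for TSLP, IL11 and LIF, and the U-2OS arrays of IL1A and the KHOS arrays of IL6 stand apart from those of the other line.

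Counted within a line, both vector arrays were at least 2-fold above control in KHOS for IL6, IL11 and TSLP, 3 of the 8 tested genes, against 1.85% of all genes. In U-2OS this held for IL1A and TSLP, against 0.733% of all genes. It held in both lines for TSLP, against 0.286%. These shares are given as a background only, because the genes were picked with these changes known.

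The study's own question was what miR-1 changes. Between miR-1 and miR-null 0 of the 8 tested genes passed in limma, as did 0 of all 12958 genes (0%), with 78 genes at an unadjusted p below 0.05 in limma. The exact Mann-Whitney test that the design text names was run on the miR-1 arrays against the other 4 arrays, where it cannot go below p = 0.133, so its count of 0 was fixed by the number of arrays. TSLP was lower with miR-1 than with miR-null by almost the same step in each line, a difference of -0.30 in KHOS and -0.29 in U-2OS, and its fitted value was -0.30 with a 95% interval of -0.75 to 0.15. IL15 had the largest fitted value, -0.59 (95% interval -1.24 to 0.06), made of -0.07 in KHOS and -1.11 in U-2OS. The KHOS arrays of that probe set were under the tested level. Its second probe set, under that level on all 6 arrays, had -0.17 in KHOS and -0.17 in U-2OS. IL6 had 0.17 in KHOS and -0.57 in U-2OS, and IL1A -0.15 and 0.40. IL11 had -0.02 and -0.02, LIF -0.01 and -0.09, IL24 -0.13 and -0.35, and IL1B -0.08 and -0.19. For IL1A and IL6 the interval of the fitted value reached from -1.36 to 1.61 and from -1.26 to 0.86, so changes of up to those bounds cannot be told from 0 with these arrays.

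The lines differed in their levels of these cytokine RNAs. KHOS had the higher level of IL11 (3.07 ± 0.21, SE, adjusted p = 9.20e-05), IL6 (1.70 ± 0.36, adjusted p = 0.00837) and LIF (0.98 ± 0.15, adjusted p = 0.00245), the 3 of the 10 genes that belong to the gp130 family. U-2OS had the higher level of TSLP, with a KHOS minus U-2OS difference of -2.86 ± 0.15 (adjusted p = 3.67e-05). These 4 passed without each array in turn. IL24, IL15 and IL1A reached the tested level through U-2OS alone, with all their KHOS arrays under 5.11, so they had to differ and their differences, -2.06 for IL24, -1.78 for IL15 and -2.97 for IL1A, are given as a description. For IL1A the difference was -1.47 with its probe sets averaged, and the lines overlapped on its other probe set. IL1B did not pass (-0.15, adjusted p = 0.401). On the probe sets used, the arrays of the lines did not overlap for 7 genes, all but IL1B, with the smallest gap for IL6 (0.12) and the widest for IL11 (1.83). Of all genes tested 64.8% had no overlap and 54.8% passed in limma, so most genes differed between these lines. For IL6 and IL1A the size follows the treatment, since the control arrays alone differed by 0.59 and -1.27.

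**Figure D3:**
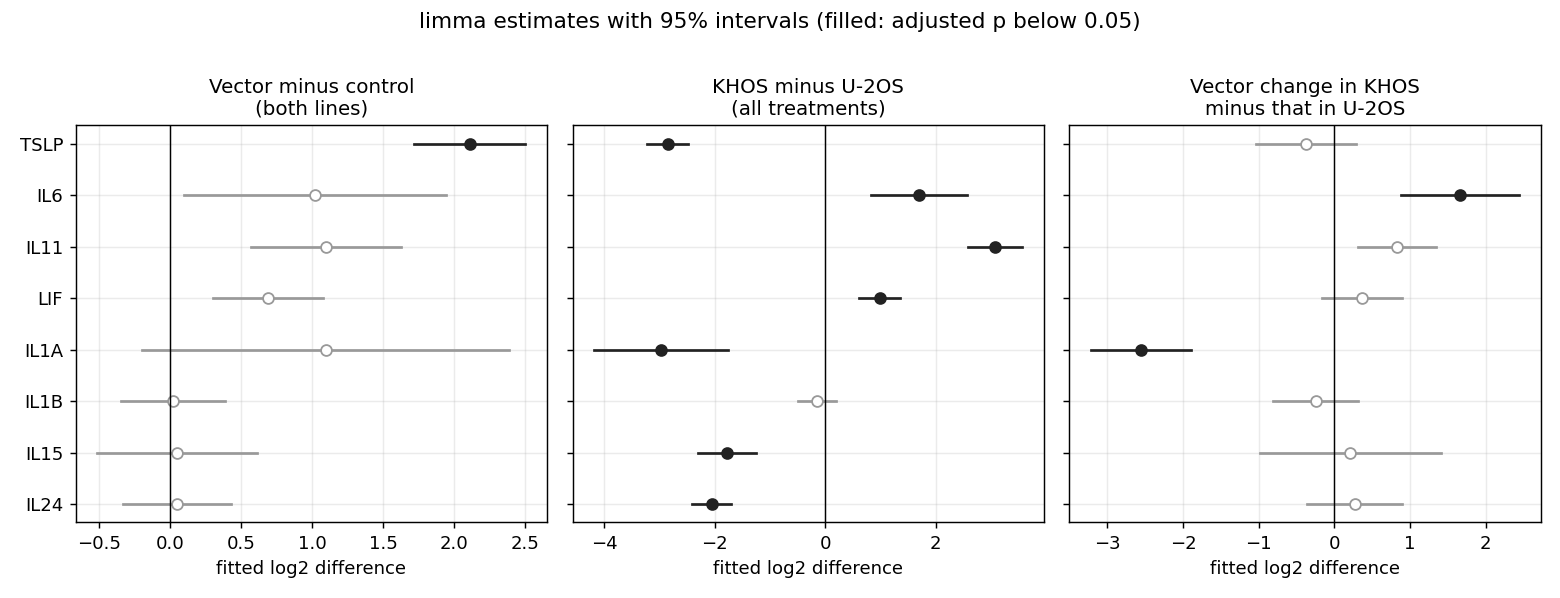
Fitted log2 differences of the 8 tested genes with 95% intervals from limma, for vector minus control, KHOS minus U-2OS, and the vector change in KHOS minus that in U-2OS. Filled points have an adjusted p below 0.05 over all genes. TSLP passes in the first and 7 genes in the second, of which IL24, IL15 and IL1A were under the tested level on all KHOS arrays. In the third, IL6 and IL1A pass.

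The promoters of IL11, IL6, IL1A and TSLP are shown because these genes had the largest fitted differences with a vector. RefSeq promoters of 300 bases were read for 7 of the 10 genes, with 11 start sites. They hold 250 bases before the start and 50 after it (GRCh38.p14). No promoter of IL7, IL15 or LIF was read. Capitals mark every match to 1 of 7 motifs searched on both strands: AP-1 (TGANTCA), NF-kB (GGANTTTCC), CRE (TGACGTCA), C/EBP-ATF (TGATGNAA), STAT (TTCNNNGAA), IRF (AAANNGAAA) and the letters TATAAA of the core promoter box, called TATA below. Matches of different motifs did not overlap in the 4 sequences shown. The arrays do not tell which of the 3 TSLP or 2 IL1A starts a transcript came from. The coordinates are chr19:55370414-55370713 on the minus strand for IL11, chr7:22726950-22727249 on the plus strand for IL6, chr2:112784444-112784743 on the minus strand for the first IL1A start and chr5:111071463-111071762 on the plus strand for the second TSLP start.
IL11: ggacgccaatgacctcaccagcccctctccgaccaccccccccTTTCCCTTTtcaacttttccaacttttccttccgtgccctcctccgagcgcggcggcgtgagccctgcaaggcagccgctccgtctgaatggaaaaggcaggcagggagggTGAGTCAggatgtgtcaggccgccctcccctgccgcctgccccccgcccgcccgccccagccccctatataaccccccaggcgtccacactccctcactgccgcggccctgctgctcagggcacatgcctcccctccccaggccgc
IL6: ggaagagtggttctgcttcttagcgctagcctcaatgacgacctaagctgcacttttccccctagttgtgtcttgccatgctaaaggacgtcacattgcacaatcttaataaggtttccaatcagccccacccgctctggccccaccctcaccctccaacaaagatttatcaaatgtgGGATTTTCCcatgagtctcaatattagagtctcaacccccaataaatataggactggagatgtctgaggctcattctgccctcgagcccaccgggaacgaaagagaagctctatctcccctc
IL1A: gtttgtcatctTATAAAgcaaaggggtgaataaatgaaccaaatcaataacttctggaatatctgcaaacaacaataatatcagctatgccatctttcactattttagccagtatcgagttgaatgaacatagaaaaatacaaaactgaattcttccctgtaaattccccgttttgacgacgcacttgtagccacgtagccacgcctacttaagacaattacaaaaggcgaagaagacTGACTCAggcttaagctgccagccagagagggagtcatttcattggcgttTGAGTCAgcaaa
TSLP: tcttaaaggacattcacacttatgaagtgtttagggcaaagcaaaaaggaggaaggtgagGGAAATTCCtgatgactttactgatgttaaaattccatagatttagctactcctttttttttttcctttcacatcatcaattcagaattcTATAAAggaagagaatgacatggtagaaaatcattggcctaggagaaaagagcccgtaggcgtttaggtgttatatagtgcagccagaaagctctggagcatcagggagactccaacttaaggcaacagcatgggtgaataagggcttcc

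The IL11 sequence holds TGAGTCA, a match to the AP-1 motif, at position -96 from the start, and an IRF match. In the IL6 sequence the NF-kB match GGATTTTCC lies at position -72. The IL1A sequence, of the first start, holds an AP-1 match on each side of that start, at positions -12 and 39, and a TATA match at position -239. For the second IL1A start both AP-1 matches lay before it, at positions -105 and -55. That start had an IRF match at position 6 and no TATA match. The TSLP sequence holds an NF-kB match at position -190, on the other strand, and a TATA match at position -100. Of 35116 promoters of this length 7.71% held an AP-1 match, 1.64% an NF-kB match, 10.5% an IRF match, 11.5% a TATA match, 7.66% a STAT match, 1.85% a CRE match and 3.62% a C/EBP-ATF match. The first TSLP start had a STAT match and the third none. IL1B had a STAT match and IL24 an IRF match, and of the IL33 starts 1 had an IRF match and the other a STAT match. A match is only a run of letters, and no binding was measured here.

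The receptors of these cytokines were read alongside. Of 16 receptor chains 13 were tested, and 0 passed between vector and control, with a median change of 0.06, where that of all genes was -0.03. After another quantile normalization these medians were 0.21 and 0.02. The interleukin-6 receptor IL6R had the highest value: it read 6.57, 8.02 and 8.58 in KHOS, against 8.43, 9.21 and 9.17 in U-2OS, with a fitted change of 1.24 (adjusted p = 0.157). LIFR, the LIF receptor, had the lowest, -0.49 (adjusted p = 0.317). Between the lines 11 of the 13 passed, against 54.8% of all genes tested. Under the alternatives that kept all 6 arrays the receptor count was 7 to 12. IL6ST, the shared gp130 chain, was higher in KHOS by 1.42 and IL15RA by 1.02. The other 9 were lower in KHOS: IL7R (-3.73), the chain that binds both interleukin-7 and TSLP, IL2RB (-3.40), OSMR (-2.42), LIFR (-1.98), IL6R (-1.21), IL11RA (-0.92), IL1R1 (-0.56), IL1RAP (-0.51) and IL22RA1 (-0.51). U-2OS thus had the higher level both of TSLP and of IL7R, and KHOS that of IL11 and a lower one of IL11RA. CRLF2, the chain specific for TSLP, read 4.92, 5.29 and 5.26 in KHOS, against 5.29, 5.69 and 5.17 in U-2OS and did not pass.

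Among the inhibitors and the transducers 0 genes passed between vector and control. SOCS2, a feedback inhibitor of JAK-STAT signalling, had the highest value of 10 tested decoys and inhibitors (0.99, adjusted p = 0.151) and PIAS3, an inhibitor of STAT3, the lowest (-0.28). For 10 tested genes of interleukin-1 maturation, NLRP1 had 0.35 and NLRP3, both of them inflammasome sensors, -0.64. None of these 10 passed for miR-1 minus miR-null, where 10 had a negative value, and 8 after another quantile normalization. Their median was -0.13, where that of all genes was also negative, -0.04. After another quantile normalization these medians were -0.10 and -0.01. Of 8 JAK and STAT genes, JAK2 had 0.45 and STAT3 -0.58 between vector and control. In the MyD88 branch IKBKG had 0.50 and IKBKB -0.49, both subunits of the IkB kinase complex. Between the lines SIGIRR, SOCS2, SOCS3, PIAS3, NLRP3, PYCARD, S100A13, HAX1, JAK1, JAK2, STAT5B, MYD88, IRAK2, MAP3K7, IKBKB and CHUK were higher in KHOS. SOCS1, CISH, NLRP1, CAPN1, JAK3, TRAF6 and TAB2 were lower there. PYCARD reached the tested level through KHOS alone, with all its U-2OS arrays under that level, so its difference is given as a description. JAK2 and NLRP3 were under the tested level on both U-2OS vector arrays. Between the lines 6 of 10 inhibitors, 6 of 10 maturation genes, 4 of 8 JAK and STAT genes and 7 of 10 MyD88 genes passed. Of all genes tested 54.8% passed. Leaving out each array gave 2 to 8 inhibitors (6 with all arrays), 4 to 6 maturation genes (6), 2 to 6 JAK and STAT genes (4) and 5 to 7 genes of the MyD88 branch (7). The inhibitor count was 2 without the KHOS or without the U-2OS miR-null array, and the JAK and STAT count was 2 without any 1 of the 4 vector arrays.

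Of 10 tested NF-kB subunits and inhibitors 1 passed in the line difference, REL, against 2.28% of all genes tested. Among all genes that passed, the line difference was above 0 for 259 and below 0 for 37. All 10 NF-kB genes had a larger change in KHOS than in U-2OS, with a median line difference of 0.84 against 0.14 for all genes. After another quantile normalization all 10 were again larger in KHOS, with 0.58 against -0.05 for all genes. REL, an NF-kB subunit, had 2.03 (adjusted p = 0.0446). REL read 6.32, 7.20 and 7.91 in KHOS, against 7.46, 6.81 and 6.50 in U-2OS. TNFAIP3, the feedback inhibitor A20, read 6.09, 8.06 and 9.15 in KHOS, against 7.14, 7.53 and 7.57 in U-2OS, and its line difference of 2.10 did not pass (adjusted p = 0.0721). NFKBIA, the inhibitor IkB-alpha, had vector means 1.18 above control in KHOS and 0.20 in U-2OS. NFKBIZ had the lowest vector change of this list, -0.53. Of all genes tested 54.8% passed between the lines. Between the lines 1 of the 10 passed, RELA, with -0.58, against 6 without the KHOS or without the U-2OS control array and 0 without the KHOS miR-1 or without the U-2OS miR-1 array.

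Of 10 tested STAT3 and NF-kB target genes, which were listed with these data known, 0 passed between vector and control, with a median of 0.55, where that of all genes was -0.03. PTGS2, the inducible cyclooxygenase, was highest (1.88, adjusted p = 0.155) and SOD2, a mitochondrial superoxide dismutase, lowest. PTGS2 read 7.39, 10.26 and 10.04 in KHOS, against 5.83, 7.02 and 6.65 in U-2OS, and its change was larger in KHOS by 1.75 (adjusted p = 0.0268). CXCL8, the chemokine interleukin-8, read 6.34, 8.63 and 8.69 in KHOS, against 6.08, 6.68 and 6.54 in U-2OS, and its change was larger in KHOS by 1.79 (adjusted p = 0.0139). PTGS2 and CXCL8 were the 2 of these 10 target genes whose line difference passed, against 2.28% of all genes tested. JAK2 was the 1 of 8 JAK and STAT genes whose line difference passed (1.43, adjusted p = 0.0268), with 1.17 in KHOS and -0.27 in U-2OS. Between the lines 8 of the 10 target genes passed, against 54.8% of all genes tested. SOCS3, JUNB, CEBPD, MCL1, PTGS2, SOD2 and CXCL8 were higher in KHOS and ICAM1 lower. The REL call was also lost with its probe sets averaged (0.78, adjusted p = 0.121) and with every probe set tested (adjusted p = 0.0573). These line differences, like that of REL, were lost with another quantile normalization (adjusted p from 0.0726 for CXCL8 to 0.155 for REL) and without the KHOS miR-null or the KHOS miR-1 array (adjusted p from 0.0823 to 0.178).

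**Figure D4:**
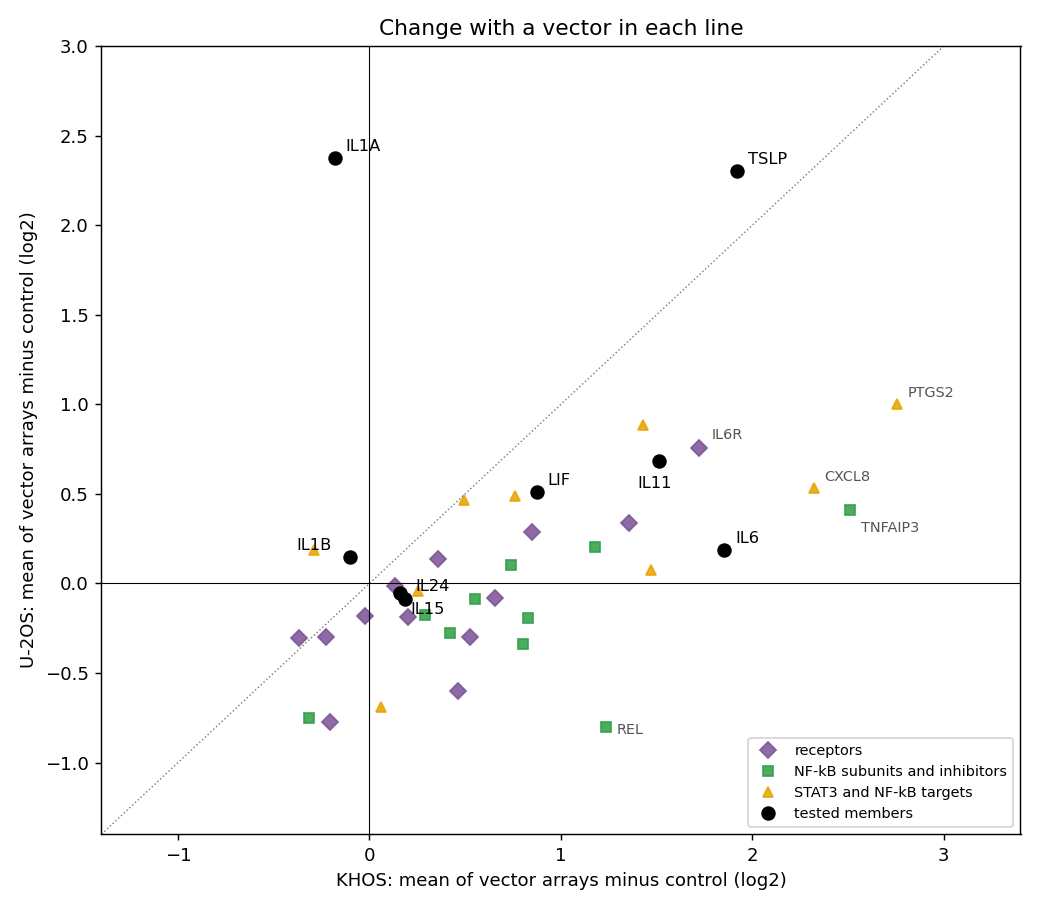
Mean of the vector arrays minus the control array (log2) in KHOS on the horizontal axis and in U-2OS on the vertical axis, 1 point per gene, for the 8 tested cytokine genes (black), their receptors, NF-kB genes and STAT3 and NF-kB targets. The dotted line marks equal changes. TSLP lies near it (1.92 and 2.30), IL1A far above it, and IL6 below it, on the same side as TNFAIP3, PTGS2 and CXCL8.

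Other interleukins and related cytokines were mostly below the tested level: 13 of 36 with a probe set were tested. None passed between vector and control. IL12A, a subunit of interleukin-12, had the highest value (0.86, adjusted p = 0.158) and IL18 the lowest (-0.29). IL18, an interleukin-1 family cytokine, read 11.13, 10.10 and 10.17 in U-2OS, against 4.13, 4.64 and 4.45 in KHOS. Its line difference in the vector change passed (1.41, adjusted p = 0.0293 in limma). IL18 reached the tested level through U-2OS alone, so this value is given as a description. That line difference was lost with another quantile normalization (1.22, adjusted p = 0.0981) and without the KHOS miR-null (1.32) or the KHOS miR-1 array (1.50). Between the lines 6 of the 13 passed, against 54.8% of all genes tested, with 0 higher in KHOS and 6 in U-2OS. These were IL18 and IL32, under the tested level on all KHOS arrays, and IL17C, CSF3, IL37 and IL23A. The count was 12 without either control array and 2 without any 1 of the 4 vector arrays. Of 9 tested proteins that bind AU-rich cytokine mRNAs, ZFP36, which speeds their decay, had 0.71 with a vector (adjusted p = 0.187), and ELAVL1, which stabilises them, -0.46 (adjusted p = 0.233). Between the lines 54.8% of all genes tested passed, and 4 of these 9. Between the lines ZFP36L2, ELAVL1 and KHSRP were higher in KHOS and ZFP36L1 lower, 4 genes against 1 without the KHOS or without the U-2OS miR-null array.

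Genes beside the cytokines on the chromosome were compared for 9 of the 10. WDR36, the next tested gene after TSLP, read 9.51, 9.23 and 9.28 in KHOS, against 8.96, 7.73 and 7.51 in U-2OS, and SLC25A46, the one before it, had a fitted vector change of -0.02. HYCC1 after IL6 had -0.79 and STEAP1B before it -0.06. COX6B2 and TMEM190, on the sides of IL11, had -0.18 and 0.31, and MTMR3 and OSM, on the sides of LIF, 0.28 and 0.03. Of the neighbours of the 9 genes none passed between vector and control in limma, with the smallest adjusted p, 0.157, for CKAP2L beside IL1A.

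The genes most like a cytokine over the 6 arrays were ranked by Pearson's r, as a description that rests on 6 points shared by line and treatment. For TSLP they were BCAS2, a splicing factor (r = 0.998), AZI2, a TBK1-binding protein (0.996), and RRAGC, a Rag GTPase (0.995), with 201 genes over 0.95. BCAS2 read from 10.90 to 11.85 over the 6 arrays. For IL11 they were the transcription factor CEBPD (0.998), MEGF6 (0.998) and CELSR1 (0.997), with 651 genes over 0.95. CEBPD read 8.52, 9.30 and 9.27 in KHOS, against 7.05, 7.49 and 7.58 in U-2OS. For IL1A on the probe set used they were RNF157 (0.999), HTR5A (0.998) and the BCL2 relative BCL2A1 (0.998), with 650 genes over 0.95. BCL2A1 read 6.72, 6.74 and 6.55 in KHOS, against 7.63, 9.38 and 9.45 in U-2OS.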

How the data were processed

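Affymetrix U133 Plus 2.0 arrays were measured in 6 samples. The authors made log2 expression values by the RMA method in the program Qlucore, per the series' deposited design description. RMA is also named in the submitters' processing notes. The deposited log2 values were used unchanged. RMA compresses differences between low values. Each gene was represented by its probe set of highest mean, and a gene was tested where that mean was at least the median over non-control probe sets, 5.11 (12958 of 19775). Control probe sets and probe sets with several symbols were left out. Symbols came from the platform's annotation table, and 0 changed on a match to RefSeq genes.

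Differences were fitted with limma 3.58.1 in R 4.3.3 (lmFit, eBayes), with Benjamini-Hochberg adjustment over all genes tested and a threshold of 0.05. The model had line and treatment as additive terms, with 2 residual degrees of freedom from the 6 arrays, and vector minus control was the mean of both vector terms. The line difference in the vector change was the product term in a model of line and vector, with the miR-null and miR-1 arrays of a line standing in for replicates. P-values therefore measure the spread between pooled arrays, and in the additive model also any difference between the lines. The code was tested on simulated data.

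The named genes were all 10 members, every gene of the lists that passed a comparison, the highest and lowest vector change of each list, and the 3 genes most like each of the 3 members with the largest vector change. Genes, lists and tests were chosen with earlier results of these data known. Alternatives were another quantile normalization, other level filters, other probe set rules, a mean-dependent prior variance, leaving out each array and the exact Mann-Whitney test. A model with 1 term for both vectors was added after seeing the data. The number of arrays limits the precision.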

Additional observations from a re-analysis of the deposited data

Results flagged for a closer look

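These results differed between the lines by the test of the line difference in the vector change. The change in KHOS minus that in U-2OS was -2.56 for IL1A, 1.67 for IL6, 1.43 for JAK2, 2.03 for REL, 1.41 for IL18, 1.75 for PTGS2 and 1.79 for CXCL8 (log2). IL1A was the 1 gene of these 7 whose change was higher in U-2OS. IL1A and IL18 were under the tested level on all KHOS arrays, so their values are given as a description.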

How the results depend on the processing

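In vector minus control 1 of the 8 tested genes passed, TSLP. The count was 0 after another quantile normalization and 0 with every probe set tested, and 1 to 4 when each array was left out. With 1 term for both vectors, added after seeing the data, TSLP again was the 1 gene. In KHOS minus U-2OS 7 passed, 3 of them through U-2OS alone, against 3 at the 75th percentile filter and 6 with probe sets averaged (without IL15), which test fewer of these genes, and 7 under the other alternatives run. Between miR-1 and miR-null 0 passed under every limma alternative run. In the line difference 2 passed, against 0 after another quantile normalization, 1 with no level filter, 1 at the 75th percentile filter (IL11), 1 with every probe set tested, and 0 to 2 when each vector array was left out. Of the 2 genes, IL1A reached the tested level through U-2OS alone. The line difference cannot be fitted without a control array. The cause was not tested. IL11 also passed it with its probe sets averaged (1.04) and when the prior variance followed the mean. No called value changed sign. In the 9 gene lists 0 genes passed in vector minus control, against up to 4 of a list without the KHOS control array (receptors) and up to 6 without the U-2OS control array (NF-kB genes). Under alternatives that kept all 6 arrays the highest count of a list was 1, for the STAT3 and NF-kB target genes. No paired analysis was possible because each line and condition has 1 array, and line is already a term.

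The count of all genes that passed was 3 in vector minus control, and 62 with 1 term for both vectors, 74 when the prior variance followed the mean, 11 after another quantile normalization, and 18 to 2271 when each array was left out. In the line difference it was 296, against 19 after another quantile normalization and 7 to 1596 when each vector array was left out.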
